A study of Rattus norvegicus with 172 samples.

Results

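Transcripts of genes that hold back the cell cycle or are known targets of the transcription factor p53 were examined in dentate granule cells of rats from 4 models of epilepsy. The 8 genes were Rprm, Cdkn1a, Cdkn1b, Gadd45a, Gadd45g, Mdm2, Ccng1 and Btg2. They were matched by gene symbol to the probe sets of the array, the brightest probe set standing for a gene with several. Of the 8 genes, 7 were matched and measured among 10761 genes tested in all. Btg2 matched no probe set in the annotation used and was not analysed here.

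The series profiled granule cells cut by laser from frozen coronal hippocampal sections of 164 male Sprague-Dawley rats, on 172 arrays (8 rats had a repeat array, which was averaged with the first). The capture was guided by a cresyl violet stain, and RNA was kept where its integrity number was above 7.0. Control rats came from the same laboratory as the treated rats of each group, and each laboratory's times were all set against that laboratory's one control group, so comparisons within a laboratory share their controls. Where a model was run in a pair of laboratories, they are named A and B. In the pilocarpine model, rats of both laboratories received methylscopolamine at 1 mg/kg and then pilocarpine at 300 to 350 mg/kg, or saline as controls. Their status epilepticus was ended with pentobarbital at 25 mg/kg after 90 min, and 6 rats per laboratory were taken at each of 1, 3 and 10 days, besides 6 controls. In the kainate model, rats received kainic acid at 5 mg/kg every hour until status epilepticus, or saline, with 6 rats per group at the same days. Laboratory A let the seizures end by themselves after 6 to 8 h, while laboratory B began with 7.5 mg/kg and ended them with pentobarbital after 90 min. In SSSE, status epilepticus that sustains itself, 1 laboratory contributed rats, with 5 controls, 6 rats at day 1, 5 at day 3 and 4 at day 10. In kindling, where repeated stimulation leads step by step to stronger seizures, 2 laboratories each contributed 6 controls and 6 rats at each of the stages 2, 4 and 5. The ages of the rats, and how the SSSE and kindling controls were treated, are not given in the sources used here.

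As background, p53 is a transcription factor that is stabilised by DNA damage and other stress and that switches on genes which stop the cell cycle, repair DNA or start cell death. Its target Mdm2 encodes the ubiquitin ligase that marks p53 for destruction, which closes a feedback loop. Mature granule neurons have left the cell cycle, and several of these genes are also known to be induced by neuronal activity or stress without any cell division.

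The promoters of Cdkn1a, Gadd45a and Ccng1 are shown because the 250 bases before their RefSeq start hold a match to the p53 half-site consensus, and that of Rprm because it was higher at 7 of 12 times and holds none. Each runs 5′ to 3′ on the gene's own strand, in the rat build GRCr8, and capitals mark the half-site match.
Cdkn1a: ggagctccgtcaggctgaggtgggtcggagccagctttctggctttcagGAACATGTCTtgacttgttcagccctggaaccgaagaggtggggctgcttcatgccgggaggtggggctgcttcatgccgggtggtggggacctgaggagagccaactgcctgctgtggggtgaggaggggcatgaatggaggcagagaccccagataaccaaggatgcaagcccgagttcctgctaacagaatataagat
Gadd45a: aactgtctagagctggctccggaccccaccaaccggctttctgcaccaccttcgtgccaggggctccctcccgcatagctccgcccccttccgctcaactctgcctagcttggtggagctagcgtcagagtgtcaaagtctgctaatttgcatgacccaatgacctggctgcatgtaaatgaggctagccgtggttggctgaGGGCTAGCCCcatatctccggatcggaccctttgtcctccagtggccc
Ccng1: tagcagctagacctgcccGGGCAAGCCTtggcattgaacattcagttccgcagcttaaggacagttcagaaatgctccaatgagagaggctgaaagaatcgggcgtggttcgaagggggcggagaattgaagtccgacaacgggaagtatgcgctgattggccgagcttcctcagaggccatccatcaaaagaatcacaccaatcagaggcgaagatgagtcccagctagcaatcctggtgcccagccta
Rprm: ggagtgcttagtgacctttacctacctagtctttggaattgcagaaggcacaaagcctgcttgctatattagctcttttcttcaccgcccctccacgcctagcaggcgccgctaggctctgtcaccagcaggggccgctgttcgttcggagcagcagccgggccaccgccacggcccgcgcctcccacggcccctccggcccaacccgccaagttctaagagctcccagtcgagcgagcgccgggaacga
These stretches lie at chr20:7150682-7150931 on the plus strand for Cdkn1a, and on the minus strand at chr4:97486800-97487049 for Gadd45a, at chr10:25684877-25685126 for Ccng1 and at chr3:58950036-58950285 for Rprm. The match was GAACATGTCT at bases -201 to -192 from the start in Cdkn1a, GGGCTAGCCC at -48 to -39 in Gadd45a and GGGCAAGCCT at -232 to -223 in Ccng1. Promoters from 250 bases before to 50 after the start were found in RefSeq for 7 of the 7 measured genes, and 3 of the 7 held a half-site on either strand, against 7.98% of 33469 rat promoters of that length. No member held the CRE (TGACGTCA, in 1.83% of all promoters) or the AP-1 motif (TGANTCA, in 7.33%), and Mdm2 alone held the FoxO motif (GTAAACA, in 3.78%), at -209 to -203. A match is a string of letters, and binding was not measured. The genes were chosen in part as known p53 targets, so the share with a half-site is a description and not a test.

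Array values are intensities on a linear scale, and the number of arrays limits their precision. Changes are differences of log2(signal + 16) from a laboratory's own controls, averaged over the laboratories of a model, with their standard error (SE), and the added 16 understates changes of dim genes. A change passed where limma's p-value, adjusted by Benjamini-Hochberg over the 10761 genes, was under 0.05. The median signal of an array ran from 27.9 to 50.2, and among 21 groups set against their controls it differed in 1, pilocarpine laboratory A at day 1 (mean 36.4 against 41.2, adjusted p = 0.0454, two-sided exact permutation test). Of 12 matched granule cell markers, 6 were above the array median in all 164 rats (Prox1, Calb1, C1ql3, Pdyn, Slc30a3 and Bcl11b), while Tdo2 was above it in 0. The same was true of 8 of 10 astrocyte markers (among them Gfap), 4 of 9 interneuron markers (among them Gad1), 3 of 9 oligodendrocyte markers (among them Mbp) and 1 of 12 microglia and macrophage markers, so this measure does not set granule cells apart. In such tissue samples, fewer cells of a type and less RNA per cell cannot be told apart. At 2 rats the labels contradict each other. SSSE day 1 rat 3 is a day 1 rat by its title and a control by other labels, and kindling A stage 2 rat 4 carries kainate in its title. Another 5 rats, of pilocarpine, kainate and SSSE at days 3 and 10, correlated less well with their groups. The changes from control were repeated without the rats of contradicting labels and without these 5.

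Across the 12 comparisons of a model and time with controls, 24 of 84 changes of the 7 genes passed, and all 24 were increases. Day 1 after pilocarpine and day 1 after kainate held more of them than any other time. At day 1 after pilocarpine, 6 of 7 members were higher, where 32.1% of all genes tested passed in either direction and 15.8% were higher. At day 1 after kainate, 5 of 7 were higher, where 41.6% of all genes passed and 22.2% were higher. The median change of the members was 0.79 after pilocarpine and 0.55 after kainate at day 1, beside medians of 0.00335 and 0.0157 over all genes. The members were chosen with earlier results of these data known, so their counts and medians are a description and not a test of the class.

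**Figure D1:**
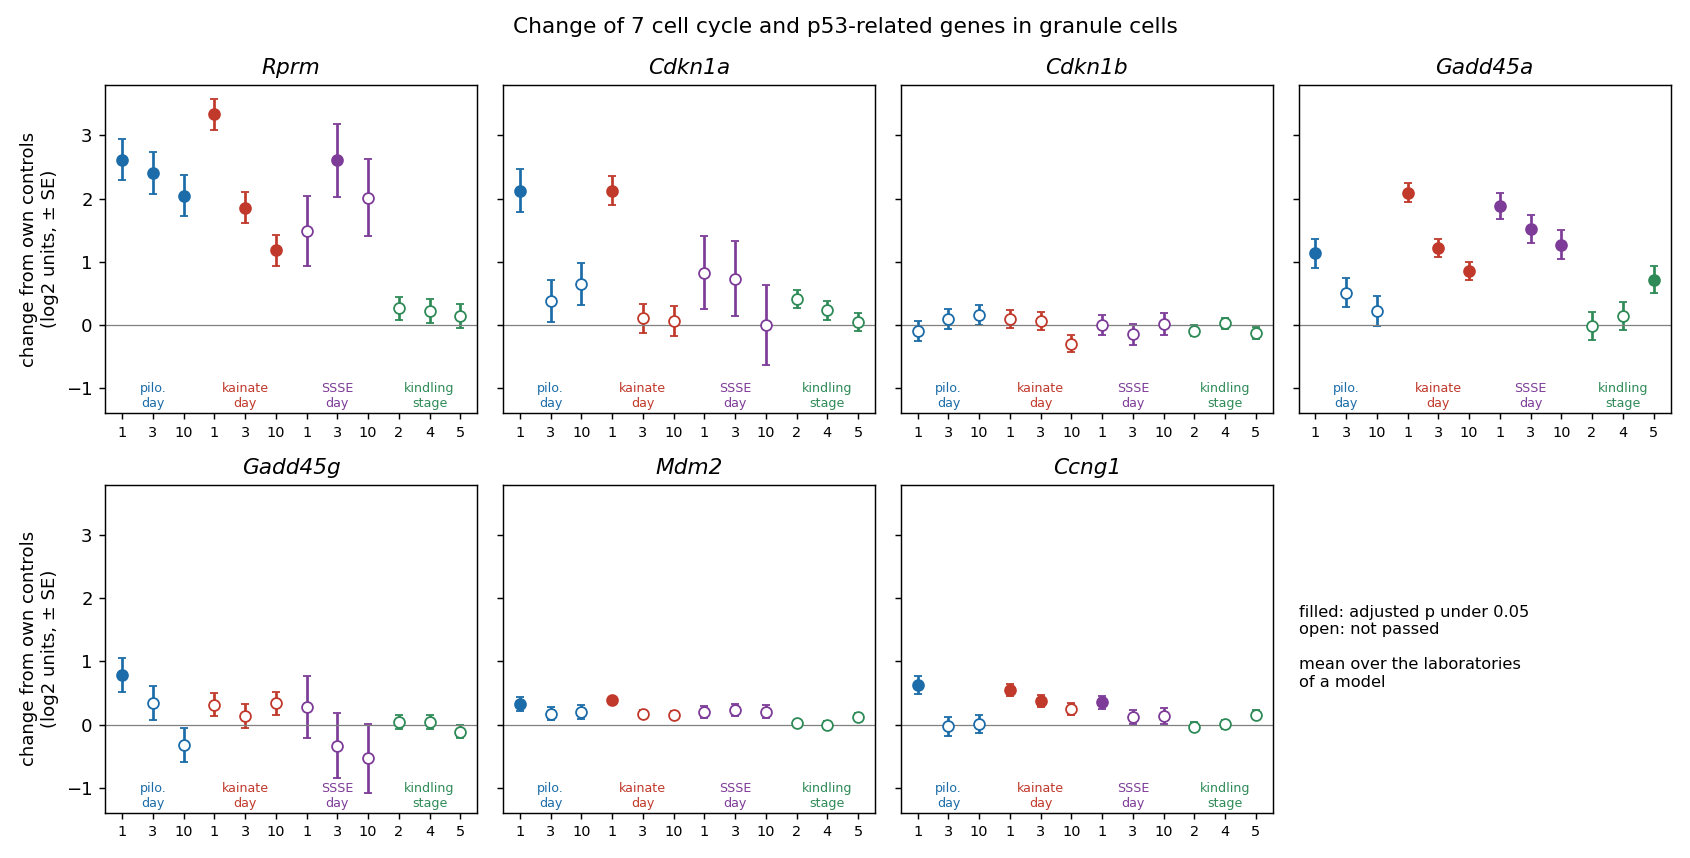
Change of each gene from its own controls in log2 units (vertical axis, points with SE bars) at every day of the pilocarpine, kainate and SSSE models and every kindling stage (horizontal axis). Filled points passed at an adjusted p under 0.05. Rprm has filled points at 7 of the 12 times and Gadd45a at 8, while Cdkn1b has 0.

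Later times and the other models held fewer calls. Rprm alone was higher at days 3 and 10 after pilocarpine, where 7.74% and 3.82% of all genes were higher and 11.7% and 8.93% passed in either direction. After kainate, 3 members were higher at day 3 (4.66% of all genes higher, 7.96% in either direction) and 2 at day 10 (2.57% and 6.28%). In SSSE, 2 members were higher at day 1 (5.51% of all genes higher, 12.5% in either direction), 2 at day 3 (1.66% and 3.14%) and 1 at day 10 (0.177% and 0.344%). In kindling, 0 of 7 passed at stages 2 and 4, where 0 genes passed in all, and 1 passed at stage 5 (3.23% of all genes higher, 7.1% in either direction). At an unadjusted p under 0.05 in limma, 1 of 7 members passed at stage 2, Cdkn1a with a change of 0.41 ± 0.15 (p = 0.00857, adjusted p = 0.993), and 0 of 7 at stage 4.

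Rprm encodes Reprimo, a glycoprotein known as a p53-induced brake at the G2 phase of the cell cycle. It was higher at every day after pilocarpine and kainate and at day 3 of SSSE. In pilocarpine laboratory B, the controls ran from 9.96 through a median of 42.5 to 61.1, and the day 1 rats from 285 through 440 to 871. In laboratory A, the controls ran from 30.9 through 36.0 to 75.4, and the day 1 rats from 65.2 through 266 to 355. The groups were apart in laboratory B, while in laboratory A 1 of 6 day 1 rats lay within the controls. The change over both laboratories was 2.62 ± 0.33 at day 1, a 6.14-fold difference (limma adjusted p = 4.23e-08), with 11 of 12 rats above their own controls.

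The increase in Rprm lasted after pilocarpine. At day 3, laboratory A ran from 99.0 through 258 to 440 and laboratory B from 152 through 325 to 803, so that 12 of 12 rats lay above their controls, and the change was 2.41 ± 0.33 (limma adjusted p = 8.98e-07). At day 10, laboratory A ran from 111 through 155 to 262 and laboratory B from 39.7 through 452 to 881, and the change was 2.05 ± 0.33 (limma adjusted p = 4.99e-05). In laboratory B, 4 of 6 rats were above the controls at day 10, while rats 5 and 6 had Rprm signals of 50.0 and 39.7. Taken alone at day 10, laboratory B passed (2.40 ± 0.47, limma adjusted p = 0.000795). Laboratory A did not (1.69 ± 0.47, limma adjusted p = 0.0626), though 6 of 6 of its rats were above the controls. The differences between days after pilocarpine did not pass for Rprm.

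After kainate Rprm was higher at day 1 and then fell. In laboratory A, the controls ran from 53 through 71 to 94.5 and the day 1 rats from 632 through 908 to 1330. In laboratory B, the controls ran from 48.9 through 64.7 to 94.9 and the day 1 rats from 332 through 830 to 1930. No day 1 rat of either laboratory overlapped the controls. The change was 3.33 ± 0.24 at day 1, a 10.1-fold difference (limma adjusted p = 3.42e-15), then 1.85 ± 0.24 at day 3 (adjusted p = 3.91e-07) and 1.18 ± 0.24 at day 10 (adjusted p = 0.0012). The decrease from day 1 was itself tested, and Rprm fell by 1.48 ± 0.24 to day 3 (limma adjusted p = 5.68e-06), and it fell by 2.15 ± 0.24 to day 10 (adjusted p = 1.71e-09). All of its 12 rats were above their controls at day 3, and 10 of 12 at day 10. Taken alone at day 10, laboratory A passed (1.38 ± 0.34, limma adjusted p = 0.0188) and laboratory B did not (0.98 ± 0.34, adjusted p = 0.178). The difference between the laboratories did not pass.

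In SSSE, Rprm spread widely between rats. The controls were at 55.6, 63.7, 32.9, 74.1 and 76.0, and the day 3 rats at 298, 726, 1490, 97.6 and 466. All 5 day 3 rats lay above the controls, and the change of 2.60 ± 0.58 passed (limma adjusted p = 0.0174). The highest of them, rat 4, was one of the rats unlike their group, and without those rats the change was 2.17 (limma adjusted p = 0.0479). The call was lost when control 3 or day 3 rat 3 was left out (limma adjusted p = 0.0513 and 0.0565). At day 1, the 6 rats ran from 50.6 through 230 to 636, with 5 above the controls and a change of 1.49 ± 0.56 that did not pass (limma adjusted p = 0.0812). At day 10, the rats were at 247, 349, 242 and 319, all 4 above the controls, yet the change of 2.02 ± 0.62 did not pass over all genes (limma adjusted p = 0.244). With all 28 groups in 1 fit, which pools the spread, days 1 and 10 passed as well (limma adjusted p = 0.0142 and 0.0265), while the same fit ended the SSSE calls of Ccng1 at day 1 (adjusted p = 0.17) and Gadd45a at day 10 (0.0817). In kindling, the change of Rprm was 0.26, 0.22 and 0.14 at stages 2, 4 and 5, and none of these passed.

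**Figure D2:**
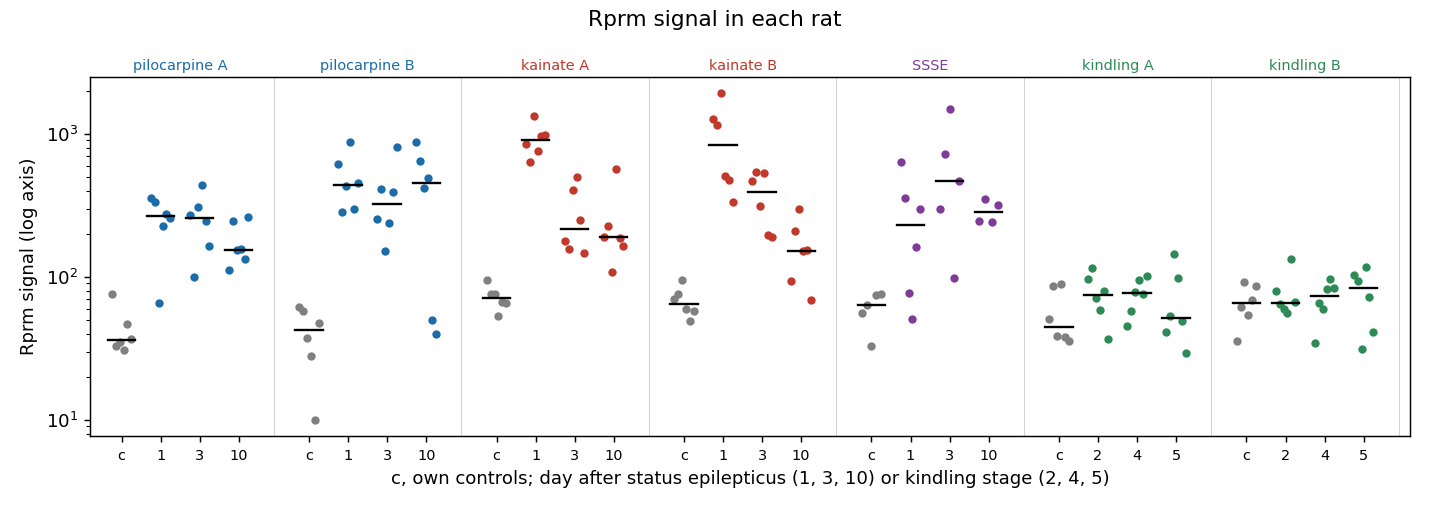
Rprm signal of every rat (points, log axis) by laboratory and time, with the median of each group as a bar and controls in grey. The kainate day 1 rats sit between 332 and 1930, all above their controls, and the kindling rats overlap theirs.

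Cdkn1a encodes p21, the inhibitor of cyclin-dependent kinases that is the best known transcriptional target of p53. It was higher at day 1 after pilocarpine and kainate, by 4.36-fold in both, and at no other time. In pilocarpine laboratory A, the controls ran from 28.9 through 56.4 to 104 and the day 1 rats from 169 through 376 to 455, with no overlap. In laboratory B, the controls ran from 6.87 through 41.9 to 79.0 and the day 1 rats from 44.8 through 249 to 449, with 5 of 6 above the controls. The change over both was 2.13 ± 0.34 (limma adjusted p = 3.24e-06). After kainate, laboratory A ran from 117 through 303 to 445 at day 1, beside controls from 29.0 through 45.0 to 160, and laboratory B from 201 through 236 to 1130, beside controls from 45.1 through 58.1 to 86.8. The change was 2.12 ± 0.23 (limma adjusted p = 3.13e-10), and 10 of 12 rats lay above their controls, the one control at 160 overlapping the other pair. The second probe set of Cdkn1a was above its array's median in 0 of 164 rats, and on it the day 1 changes were 0.32 after pilocarpine (limma adjusted p = 0.0509) and 0.39 after kainate (adjusted p = 0.000161).

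The Cdkn1a signal was near controls at day 3 after pilocarpine and kainate. The fall from day 1 to day 3 was 1.75 ± 0.34 after pilocarpine and 2.02 ± 0.23 after kainate, which both passed in limma (adjusted p = 0.000183 and 3.71e-09). At day 10 after pilocarpine, the groups split within laboratory B, where Cdkn1a was at 350, 280, 309 and 90.2 in rats 1 to 4 and at 24.9 and 13.5 in rats 5 and 6. Rats 5 and 6 were also the 2 with Rprm at control level. The day 10 change of 0.65 ± 0.34 did not pass (limma adjusted p = 0.236). It was 0.04 ± 0.48 in laboratory A and 1.25 ± 0.48 in laboratory B, and neither passed alone (limma adjusted p = 0.983 and 0.0905). In laboratory B, 4 of 6 rats lay above their controls at day 10. In SSSE the changes of 0.83 at day 1 and 0.73 at day 3 did not pass, and single rats stood high, with day 1 rat 1 at 364 and day 3 rat 4 at 575 where the controls reached 48.7.

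Cdkn1b encodes p27, a cyclin-dependent kinase inhibitor of the same family that is regulated largely by protein turnover. In kainate laboratory A, its controls ran from 308 through 339 to 376 and the day 1 rats from 286 through 334 to 420, reaching past the controls on both sides. It passed in 0 of 12 comparisons in limma, with changes between -0.30 and 0.15. At an unadjusted p under 0.05, 1 of the 12 passed, kainate day 10 (-0.30 ± 0.14, p = 0.0374, limma adjusted p = 0.219), where 6 of 12 rats lay below their own controls. Between days 1 and 10 after kainate, Cdkn1b fell by 0.39 ± 0.14 (limma adjusted p = 0.0255), a difference that did not pass with array weights (-0.29, adjusted p = 0.0839) or without the rats unlike their group (-0.30, adjusted p = 0.0705).

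Gadd45a encodes a small protein induced by DNA damage and stress that acts in growth arrest and DNA repair, and it passed in more comparisons than any other member, 8 of 12. It was higher at all 3 days after kainate, at all 3 days of SSSE, at day 1 after pilocarpine and at kindling stage 5. In kainate laboratory A, the controls ran from 40.8 through 50.1 to 66.7 and the day 1 rats from 198 through 245 to 431. In laboratory B, the controls ran from 10.2 through 17.0 to 20.4 and the day 1 rats from 55.0 through 135 to 187. Controls and day 1 rats did not overlap in either laboratory. The change was 2.09 ± 0.15 at day 1, or 4.27-fold, then 1.22 ± 0.15 at day 3 and 0.85 ± 0.15 at day 10 (limma adjusted p = 1.07e-15, 6.55e-08 and 9.5e-05). It fell by 0.87 ± 0.15 from day 1 to day 3 and by 1.24 ± 0.15 to day 10 (limma adjusted p = 7.38e-06 and 4.6e-09), and 12 and 11 of 12 rats were still above their controls at days 3 and 10. Taken alone at day 10, laboratory A passed (1.15 ± 0.21, limma adjusted p = 0.000647) and laboratory B did not (0.55 ± 0.21, adjusted p = 0.212). The difference between the laboratories did not pass.

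In SSSE, Gadd45a separated every treated rat from every control. The controls were at 31.6, 27.6, 24.9, 49.7 and 53.5. The day 1 rats ran from 103 through 185 to 258, the day 3 rats were at 108, 207, 175, 108 and 99.2, and the day 10 rats at 91.9, 136, 95.3 and 122. The change was 1.88 ± 0.21 at day 1, 1.52 ± 0.22 at day 3 and 1.27 ± 0.23 at day 10 (limma adjusted p = 6.64e-05, 0.000742 and 0.013). The rat with contradicting labels, day 1 rat 3, had a Gadd45a signal of 193, within the day 1 rats and above all 5 controls, and a Rprm signal of 77.1, next to the highest control. Counted as a control, it ended the calls of Gadd45a at day 3 (limma adjusted p = 0.0742) and day 10 (adjusted p = 0.425). The day 10 call also ended without day 10 rat 2 or rat 6 (limma adjusted p = 0.0654 and 0.0666) and with all 28 groups in 1 fit (0.0817).

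After pilocarpine, Gadd45a rose at day 1. Laboratory A ran from 17.6 through 91.6 to 202, beside controls from 5.37 through 29.1 to 51.5, and laboratory B from 32.8 through 59.1 to 102, beside controls from 2.19 through 23.2 to 43.5. In each laboratory 5 of 6 rats lay above the controls. The change was 1.13 ± 0.23 (limma adjusted p = 0.000189), and those of 0.51 at day 3 and 0.22 at day 10 did not pass. The day 1 change was smaller than after kainate by 0.96 ± 0.29 in a test of the difference itself (limma adjusted p = 0.0377, where 3.63% of all genes differed). That difference did not pass with 1 added before the logarithm (adjusted p = 0.193), with quantile normalization (0.0579) or with array weights (0.0924).

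At kindling stage 5, the change of Gadd45a was 0.71 ± 0.22 (limma adjusted p = 0.0346), with 7 of 12 rats above their own controls. Laboratory A carried most of it, with controls from 26.7 through 55.3 to 97.6 and stage 5 rats from 53.8 through 181 to 206, a change of 1.20 ± 0.31 (limma adjusted p = 0.0401). In laboratory B, the controls ran from 39.1 through 60.1 to 70.3 and the stage 5 rats from 33.4 through 56.2 to 162, and the change of 0.22 ± 0.31 did not pass. At this stage 0.976% of all genes passed in laboratory A alone and 0.344% in laboratory B. The difference between the laboratories did not pass (0.98 ± 0.43, limma adjusted p = 0.963). With 1 added before the logarithm, the stage 5 call was lost (0.82, limma adjusted p = 0.052).

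**Figure D3:**
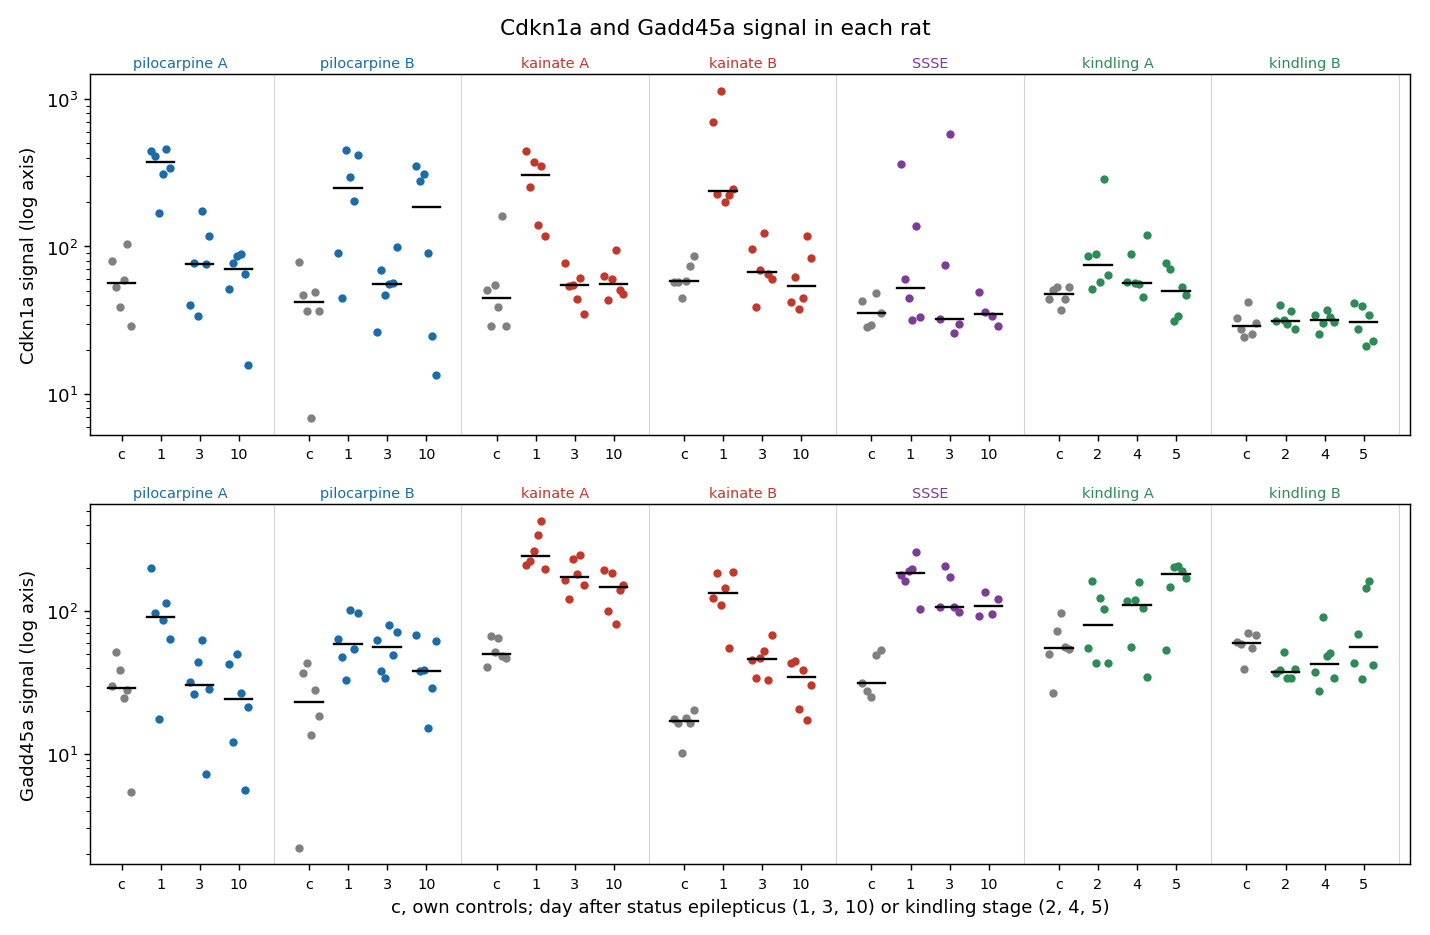
Cdkn1a and Gadd45a signal of every rat (points, log axes) by laboratory and time, with group medians as bars and controls in grey. Cdkn1a stands above controls at day 1 of pilocarpine and kainate, while Gadd45a stays above controls at every day of kainate and SSSE in nearly all rats.

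Gadd45g encodes a relative of Gadd45a that also responds to stress. It passed in 1 of 12 comparisons, day 1 after pilocarpine, at 0.79 ± 0.27 (limma adjusted p = 0.0208). In laboratory A, the controls ran from 103 through 215 to 272 and the day 1 rats from 304 through 576 to 746, with no overlap and a change of 1.38 ± 0.38 (limma adjusted p = 0.00669). In laboratory B, the controls ran from 129 through 185 to 244 and the day 1 rats from 146 through 196 to 321, and the change of 0.20 ± 0.38 did not pass. In laboratory A alone 22.6% of all genes passed at this time, and in laboratory B alone 15.1%. The difference between the laboratories did not pass (1.18 ± 0.54, limma adjusted p = 0.452). Laboratory A's day 1 arrays were also the ones with the lower median signal, and the part of this in the change was not tested. With every array centred on its median the change over both laboratories still passed. Centring raises laboratory A's day 1 arrays relative to their controls, so it cannot decide this. Gadd45g fell by 1.11 ± 0.27 from day 1 to day 10 (limma adjusted p = 0.00407). Outside this time, single rats stood far above the rest, with pilocarpine B day 3 rat 2 at 2940 and SSSE day 1 rat 5 at 1670.

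Mdm2, the ligase of the p53 feedback loop, was higher at day 1 after pilocarpine and kainate, by small amounts. In kainate laboratory A, the controls ran from 317 through 338 to 369 and the day 1 rats from 410 through 462 to 568, and in laboratory B the controls ran from 298 through 347 to 363 and the day 1 rats from 355 through 442 to 479. Of 12 day 1 rats, 11 lay above their controls, and the change was 0.38 ± 0.06, or 1.31-fold (limma adjusted p = 3.76e-07). After pilocarpine it was 0.33 ± 0.11 (limma adjusted p = 0.0166), with 9 of 12 rats above and 1 below their controls. Taken alone, laboratory A (0.34 ± 0.15) and laboratory B (0.32 ± 0.15) did not pass (limma adjusted p = 0.109 and 0.152). A second Mdm2 probe set that also passed the filter on dim values gave 0.51 after kainate (limma adjusted p = 5.44e-06) and 0.41 after pilocarpine (adjusted p = 0.018), and on it SSSE day 1 passed as well (0.32, adjusted p = 0.0268, against 0.19 and 0.183 on the brightest). After kainate, Mdm2 fell by 0.22 ± 0.06 to day 3 and by 0.23 ± 0.06 to day 10 (limma adjusted p = 0.00267 and 0.00173).

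Ccng1 encodes cyclin G1, a p53 target that takes part in the control of Mdm2. It was higher at day 1 in pilocarpine, kainate and SSSE and at day 3 after kainate. In pilocarpine laboratory A, the controls ran from 1590 through 2250 to 2630 and the day 1 rats from 3240 through 4010 to 4240. In laboratory B, the controls ran from 1400 through 2210 to 2590 and the day 1 rats from 2080 through 2800 to 3990. The groups of laboratory A were apart and 4 of 6 day 1 rats of laboratory B lay above their controls. The change over both was 0.63 ± 0.15, or 1.54-fold (limma adjusted p = 0.000988), while that of laboratory B alone did not pass (0.39 ± 0.21, adjusted p = 0.213). After kainate, the change was 0.55 ± 0.10 at day 1 and 0.37 ± 0.10 at day 3 (limma adjusted p = 6.32e-06 and 0.00898), with 7 and 3 of 12 rats above their controls. Ccng1 fell by 0.65 ± 0.15 from day 1 to day 3 after pilocarpine (limma adjusted p = 0.0013) and by 0.30 ± 0.10 from day 1 to day 10 after kainate (adjusted p = 0.0121).

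In SSSE, the Ccng1 controls were at 1296, 1198, 1344, 1316 and 1058, and the 6 day 1 rats ran from 1350 through 1630 to 1790. No day 1 rat overlapped the controls, and the change was 0.35 ± 0.11 (limma adjusted p = 0.0396). The call was lost with any of the 5 controls left out, or day 1 rat 1, 2, 4 or 5 (limma adjusted p from 0.0505 to 0.0926), with the rat number as a block (0.0605), with all 28 groups in 1 fit (0.17) and with day 1 rat 3 as a control (0.0771).

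**Figure D4:**
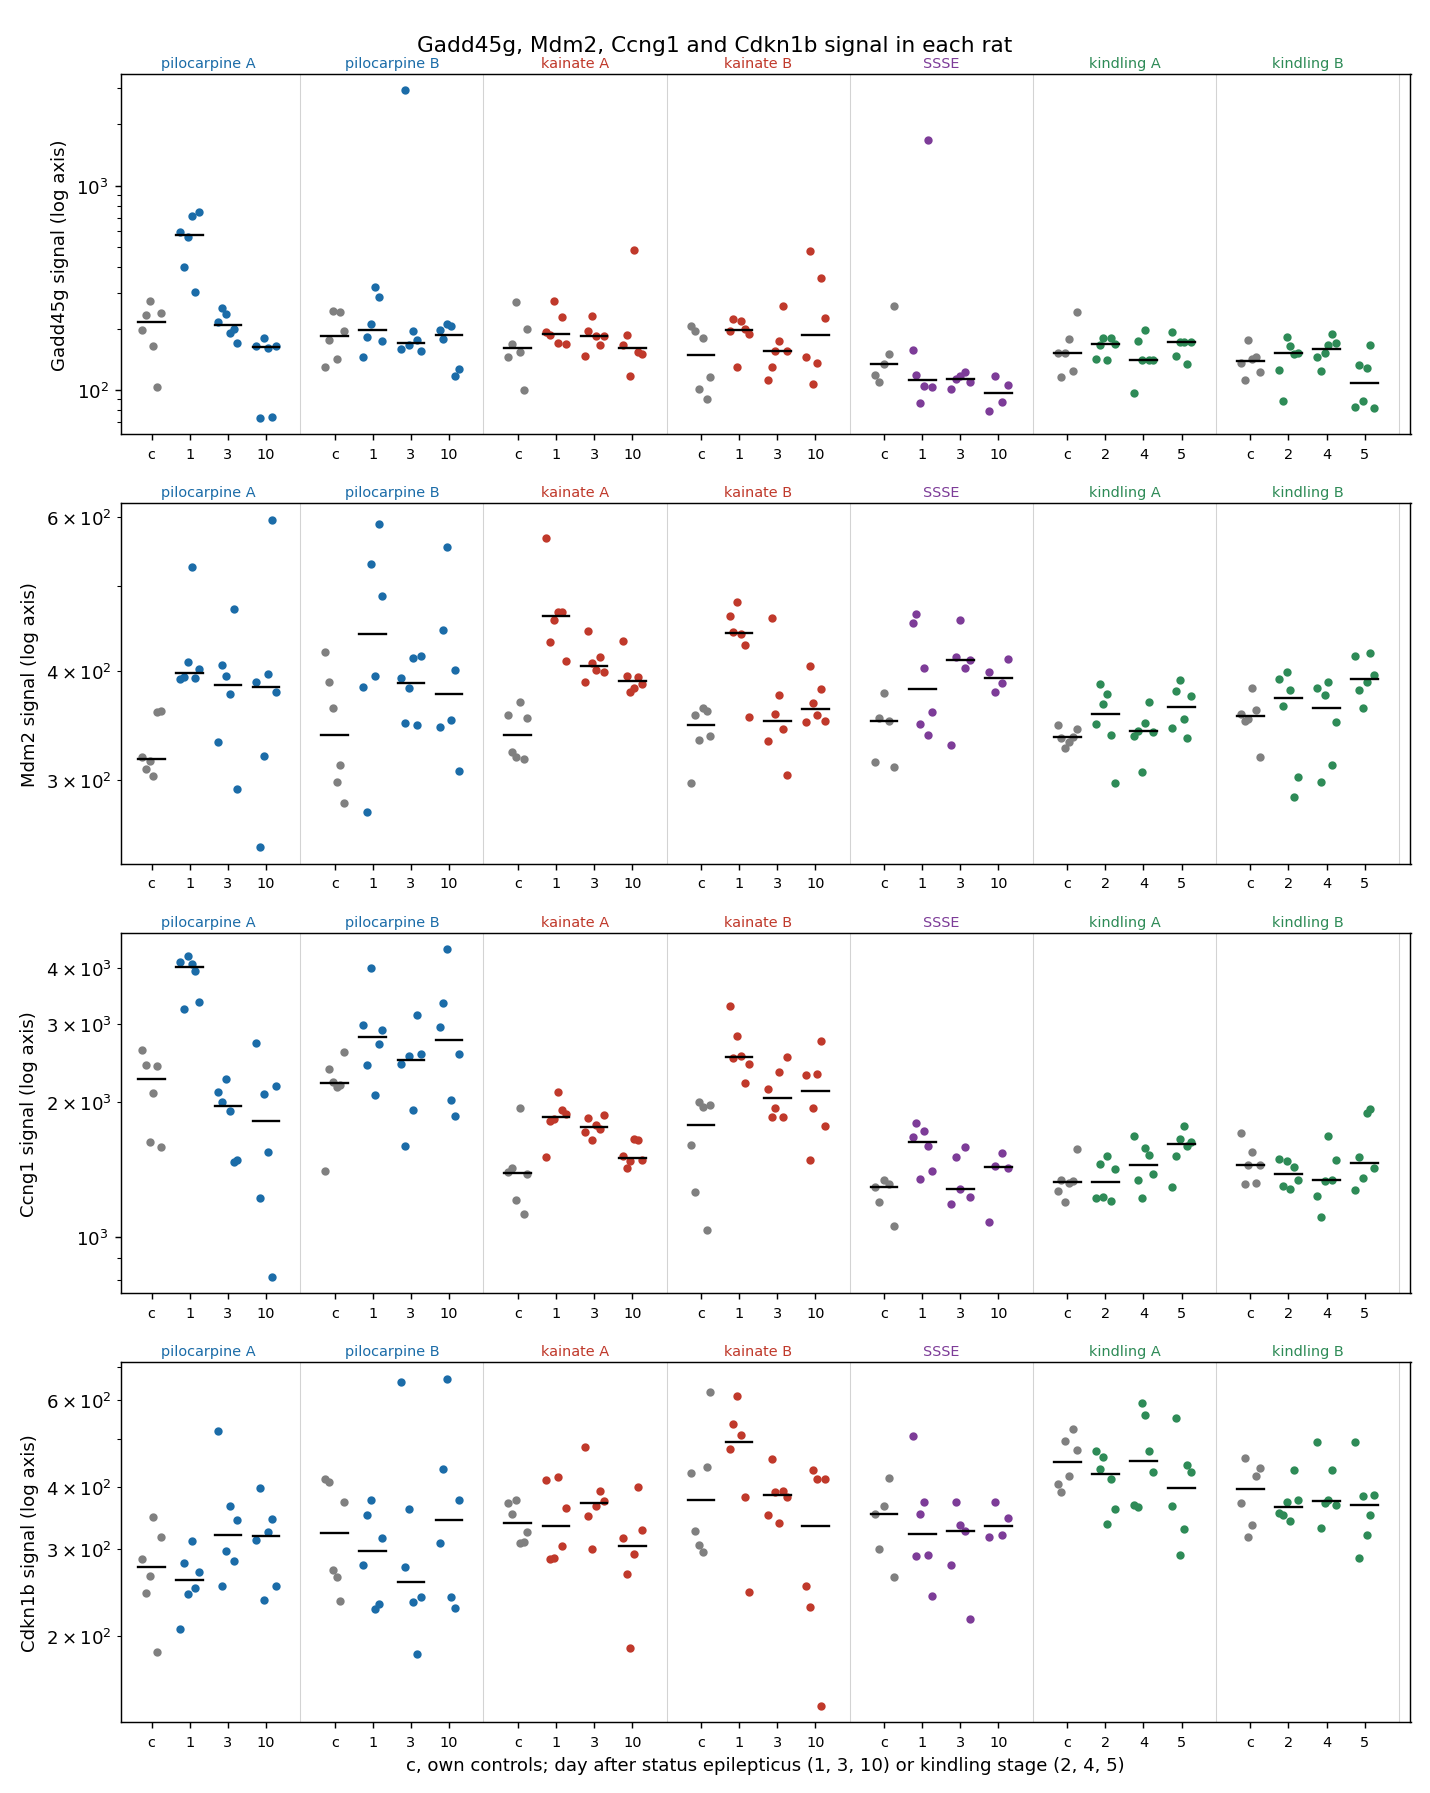
Gadd45g, Mdm2, Ccng1 and Cdkn1b signal of every rat (points, log axes, each with its own scale) by laboratory and time, with group medians as bars and controls in grey. Ccng1 rats of pilocarpine A day 1 sit between 3240 and 4240, above controls that reach 2630, while Cdkn1b groups overlap throughout.

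The laboratories of a model were compared at each time, and 0 of 63 member differences passed in limma, against 5 of 63 at an unadjusted p under 0.05. Across all genes at most 0.00929% differed between laboratories. In kainate the laboratories also differed in first dose and in how status epilepticus ended, so laboratory and protocol cannot be told apart. Between times, 17 member differences passed, all of them lower later and all of them counted from day 1 after pilocarpine or kainate. From day 1 to day 3, 3 of 7 members fell after pilocarpine, where 23.2% of all genes differed, and 4 of 7 after kainate, where 31.1% did. From day 1 to day 10, 4 of 7 fell after pilocarpine (15.9% of all genes differed) and 6 of 7 after kainate (33% did). From day 3 to day 10, 0 of 7 passed in either model (1.68% and 0.743% of all genes). In SSSE 0 of 21 member differences passed in limma (2 at an unadjusted p under 0.05), where 0.604% of all genes differed between days 1 and 3, 5.85% between days 1 and 10 and 0 between days 3 and 10. In kindling 0 of 21 passed (6 at an unadjusted p under 0.05), where 0 genes differed between stages 2 and 4, 0.0186% between stages 4 and 5 and 2.65% between stages 2 and 5. Between models at matched days, the Gadd45a difference above was the one that passed. The change of Rprm at day 1 was larger after kainate than in SSSE by 1.85 ± 0.52, which did not pass (limma adjusted p = 0.0532). Against kindling stage 5, the change of Rprm at day 10 after pilocarpine was larger by 1.91 ± 0.41 (limma adjusted p = 0.00659, where 2.61% of all genes differed). The corresponding differences at day 10 of SSSE, 1.88 ± 0.56, and of kainate, 1.04 ± 0.41 (adjusted p = 0.657), did not pass.

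Markers of other cells moved with these comparisons, and their part in the changes was not tested. Of all genes, 32.1% passed at day 1 after pilocarpine, 41.6% after kainate and 12.5% in SSSE. At day 3, 11.7% passed after pilocarpine and 7.96% after kainate. Of 11 granule cell markers, 8 were lower and 1 higher at day 1 after pilocarpine, and 9 lower and 1 higher after kainate. In SSSE 6 of 11 were lower and 0 higher. Their summed signal at day 1 ran from 8290 to 9670 in kainate A (controls 11200 to 14000), 10700 to 16200 in kainate B (15600 to 18100), 11400 to 18600 in pilocarpine A (13000 to 19500), 10600 to 15200 in pilocarpine B (15000 to 19900) and 9220 to 11300 in SSSE (11500 to 14200). Microglia and macrophage markers were higher for 6 of 10 at day 1 and 8 of 10 at day 3, both after pilocarpine and after kainate, and 0 were lower. Their sum at day 1 ran from 743 to 2130 in pilocarpine A (controls 347 to 754), 574 to 3070 in pilocarpine B (317 to 573), 576 to 1410 in kainate A (234 to 833) and 457 to 781 in kainate B (329 to 604). Astrocyte markers were lower for 6 of 9 at day 1 after pilocarpine, 6 of 9 after kainate and 4 of 9 in SSSE. In each of these 1 of 9 was higher. At day 3, 4 of 9 were higher after pilocarpine and 3 of 9 after kainate, and 0 were lower. At day 1, 0 of 8 oligodendrocyte markers passed after pilocarpine, after kainate or in SSSE. Endothelial markers were higher for 2 of 6 after pilocarpine and 2 of 6 after kainate, and 0 of 6 passed in SSSE. Hilar and pyramidal cell markers were higher for 3 of 7 after pilocarpine and 1 of 7 after kainate (2 lower), and 0 of 7 passed in SSSE. Of 8 interneuron markers, 1 was higher and 1 lower in each. No marker was at 0 on any array. At day 3 after pilocarpine, where Rprm was the one member that passed, the microglial sum ran from 1350 to 5670 in laboratory A and from 783 to 2220 in laboratory B. In SSSE at day 1, where Gadd45a and Ccng1 were higher, it ran from 196 to 1050 beside controls from 240 to 354, with medians of 299 and 278. At day 3 of SSSE, where Rprm and Gadd45a were higher, the sum ran from 369 to 867, with a median of 461. There 2 of 10 of these markers were higher and 0 lower (1.66% of all genes higher). At day 10 of SSSE, where Gadd45a was higher, the sum ran from 320 to 518, and 0 of 10 passed. At kindling stage 5, 3 of 11 granule cell markers were lower and 0 higher, where 7.1% of all genes passed.

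Among related genes, 10 of 12 other inhibitors and antiproliferative genes were tested. At day 1 after pilocarpine 3 were higher and 1 lower, and after kainate 2 were higher and 2 lower, where 32.1% and 41.6% of all genes passed, so these shares lie near the background. Gadd45b, the third GADD45 gene, rose by 2.70 ± 0.36 after pilocarpine (limma adjusted p = 1.3e-07) and by 1.41 ± 0.34 after kainate (adjusted p = 0.000769). Ccng2, which encodes cyclin G2, rose by 1.03 ± 0.14 at day 1 after kainate (limma adjusted p = 4.57e-08). Cdkn1c, which encodes p57, the third member of the p21 family, was lower at day 1 of SSSE by -1.03 ± 0.22 (adjusted p = 0.00741). Btg3, an antiproliferative gene, was lower by -0.54 at day 1 after kainate (adjusted p = 0.0397).

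Of 30 other p53 targets listed, 16 were tested. At day 1 after pilocarpine 4 were higher and 2 lower, and after kainate 4 were higher and 1 lower, beside the same 32.1% and 41.6% of all genes, so that neither count stands out from the background. In SSSE 0 of 16 passed in limma at any day, against 2, 3 and 0 at an unadjusted p under 0.05 at days 1, 3 and 10. Plk2, a polo-like kinase induced in active neurons, was higher at day 1 after pilocarpine by 1.53 ± 0.23 (limma adjusted p = 1.28e-06), and Dram1, which acts in autophagy, by 0.61 (adjusted p = 0.000672). Ddit4, a brake on mTOR signalling, was lower by -0.93 and Sesn1, a stress-induced sestrin, by -0.73 (limma adjusted p = 0.00049 and 0.000294). The list median at day 1 was 0.16 after pilocarpine and -0.00489 after kainate, beside 0.00335 and 0.0157 over all genes.

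Of 17 genes of p53 and its regulators, 11 were tested, and at day 1 after pilocarpine 2 were higher and 2 lower (32.1% of all genes passed). After kainate 0 were higher and 2 lower (41.6% of all genes). Cop1, a ubiquitin ligase for p53, was higher by 0.45 ± 0.10 at day 1 after pilocarpine (limma adjusted p = 0.000434). Also after pilocarpine, Crebbp, a histone acetyltransferase, was lower by -0.29 at day 1 and Ppp1r13b, a p53-binding protein, by -0.35 at day 10 (limma adjusted p = 0.0323 and 0.0263).

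Of 22 cyclins, cyclin-dependent kinases and genes of the Rb pathway, which holds both drivers and brakes of the cell cycle, 18 were tested. After pilocarpine 5 were higher and 1 lower at day 1 and 9 were higher at day 3. After kainate 7 were higher and 2 lower at day 1 and 4 higher and 1 lower at day 3. Of all genes, 32.1% passed at day 1 and 11.7% at day 3 after pilocarpine, and 41.6% and 7.96% after kainate. The genes that passed include the Rb relatives Rbl1, a brake, higher by 0.51 and 0.50 at days 1 and 3 after pilocarpine, and Rbl2, lower by -0.38 at day 1 after kainate (limma adjusted p = 0.0158, 0.0426 and 0.00336), which are named after their values were seen. Cdk1, the kinase of mitosis, rose by 1.62 ± 0.17 and Mki67, a marker of dividing cells, by 1.41 ± 0.17 at day 3 after pilocarpine (limma adjusted p = 2.68e-09 and 8.77e-08). At that time 8 of 10 microglia and macrophage, 4 of 9 astrocyte and 1 of 8 oligodendrocyte markers were higher, beside 7.74% of all genes. So were 1 of 8 interneuron markers (1 lower), 1 of 7 hilar and pyramidal cell markers and 0 of 6 endothelial markers. Of 11 granule cell markers, 0 were higher and 3 lower. Which cells held these transcripts was not tested. Ccnd2, which encodes cyclin D2, was lower by -0.92 at day 1 after kainate and Ccne2, which encodes cyclin E2, by -0.49 at day 1 after pilocarpine (adjusted p = 0.000344 and 0.041).

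The members' patterns over the 21 changes of a laboratory and time were compared by Pearson's r, as a description, since these changes share controls. Between members, r ran from -0.22 to 0.809 over 21 pairs of genes. It was highest for Rprm with Mdm2, and 0.723 for Cdkn1a with Mdm2. Across all genes, the pattern of Rprm was most like those of Plin2 (r = 0.964), C1s (0.943) and Lhfpl3 (0.915). Cdkn1a was most like Il1r2 (0.965), Tnfrsf12a (0.958) and Ttc9 (0.957), and Gadd45a most like Shb (0.908), Prss23 (0.908) and Prmt3 (0.867). Mdm2 was most like Ptpn5 (0.917), Bub3 (0.900) and Jup (0.897), and Ccng1 most like Paxip1 (0.935), Mmd (0.935) and Tollip (0.915). For Gadd45g the values were lower, with Clk1 (0.832), Pcbp1 (0.819) and Polr2c (0.805), and lower still for Cdkn1b, with Mrpl39 (0.745), Prorsd1 (0.71) and Spata6 (0.707). Each is among the highest values of a search over all genes tested. Such a search raises r by itself, and by how much was not tested. The day 1 changes of Plin2, which coats lipid droplets, were 1.87 after pilocarpine and 2.24 after kainate, and those of Il1r2, a decoy receptor for interleukin 1, were 2.21 and 2.17.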

How the data were processed

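The authors deposited 1 table of Affymetrix intensities on a linear scale, made with MAS5 per the submitters' processing notes; scaling and other steps are not given in the sources used here. Of 31099 probe sets, 57 were controls, and 20826 carried 1 gene symbol, 436 several and 9780 none in the platform annotation. Repeated arrays of a rat were averaged as log2(signal + 16). Probe sets above their array's median in at least 6 rats were kept (14282), and the brightest stood for each of 10761 genes. Each model was fitted in limma 3.58.1 (R 4.3.3) with 1 mean per group, giving 12 changes from control, 21 per laboratory, 9 laboratory differences and 12 time differences; 12 model differences came from 1 fit of 28 groups. P-values were adjusted by Benjamini-Hochberg over all genes in each comparison. The code was tested on simulated data.

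All members were named whatever their values. From each pathway list the text names up to 2 rises and 2 falls, the largest that passed at any time, besides Gadd45b (1 gene under this rule is not reported here), and for each member the 3 genes with the highest Pearson's r. Members and lists were chosen with earlier results of these data known. The rats are separate animals per the labels. Alternatives changed the added value, filter, probe set, normalization, samples, block, weights and spread model; those leaving out rats unlike their group (median correlation more than 0.02 under the group's), and those on differences and pathway genes, were chosen after seeing the data. Promoters came from RefSeq (GRCr8).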

Additional observations from a re-analysis of the deposited data

Results flagged for a closer look

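Each of the 7 genes was looked at in each of the 28 groups of 4 to 6 rats, giving 196 sets of values. Single rats stood apart from the rest of their group in 14 of these, by the share of the group's range that separated them from the nearest rat. Chance flags about 1 in 20 sets, or 9.8 of these, and sets of different genes share rats. For Gadd45g, pilocarpine B day 3 rat 2 had a signal of 2940 where the other rats ran from 155 to 195, and SSSE day 1 rat 5 had 1670 where the others ran from 86.3 to 156. Kainate A day 10 rat 4 had a Gadd45g signal of 483 (others 117 to 186) and kainate B day 1 rat 3 one of 130 (others 189 to 223). For Rprm, pilocarpine A day 1 rat 3 was low at 65.2 (others 227 to 355). For Cdkn1a, kindling A stage 2 rat 5 was at 288 (others 51.5 to 89.6), kainate A control rat 5 at 160 (others 29.0 to 54.5) and pilocarpine A day 10 rat 6 at 15.7 (others 51.5 to 89.3). For Gadd45a, kindling A stage 5 rat 1 was at 53.8 (others 148 to 206), kindling B stage 2 rat 3 at 51.9 (others 33.8 to 39.5) and kainate B control rat 3 at 10.2 (others 16.5 to 20.4). For Mdm2, pilocarpine A day 1 rat 4 was at 526 (others 391 to 410) and kainate A day 10 rat 1 at 433 (others 379 to 395). For Ccng1, pilocarpine B control rat 1 was at 1400 (others 2160 to 2590).

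Changes that differed between times of a model, tested on the difference itself in limma, were all lower later. From day 1 to day 3 after pilocarpine, the difference was -1.75 for Cdkn1a, -0.62 for Gadd45a and -0.65 for Ccng1. From day 1 to day 10 it was -1.48 for Cdkn1a, -0.91 for Gadd45a, -1.11 for Gadd45g and -0.62 for Ccng1. After kainate, from day 1 to day 3, it was -1.48 for Rprm, -2.02 for Cdkn1a, -0.87 for Gadd45a and -0.22 for Mdm2. From day 1 to day 10 after kainate it was -2.15 for Rprm, -2.07 for Cdkn1a, -0.39 for Cdkn1b, -1.24 for Gadd45a, -0.23 for Mdm2 and -0.30 for Ccng1. Between models, the change of Gadd45a at day 1 differed by -0.96 (pilocarpine minus kainate), and that of Rprm by 1.91 (pilocarpine day 10 minus kindling stage 5).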

How the results depend on the processing

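Of the 24 member calls, 18 were kept under every other setting run on them, 14 or 15 for a call in pilocarpine, kainate or kindling and 36 or 37 for one in SSSE, where each rat was also left out. The other 6 were Cdkn1a at pilocarpine day 1, Ccng1 at SSSE day 1, Rprm at SSSE day 3, Gadd45a at SSSE days 3 and 10 and Gadd45a at kindling stage 5. Counts of members that passed became 0 (1 added) and 2 (array weights) at kindling stage 5, 2 at pilocarpine day 10 (28 groups in 1 fit), 2 at pilocarpine day 3 and 2 at SSSE day 10 (array weights), and, with SSSE day 1 rat 3 as a control, 1, 1 and 0 at SSSE days 1, 3 and 10. Mdm2 passed under 3 of 15 settings at kainate day 3 and under 1 of 15 each at kainate day 10 and pilocarpine days 3 and 10. With each SSSE rat left out in turn, counts ran from 1 to 3 at day 1, 1 to 2 at day 3 and 0 to 1 at day 10. With the rat number as a replicate block, the count at SSSE day 1 was 1, Ccng1 there was 0.37 (limma adjusted p = 0.0605), and the change of Cdkn1b at SSSE day 1 was 0.05175 and of Cdkn1a at SSSE day 10 0.3011; Mdm2 passed at kainate day 3 (0.0421) and the Gadd45a difference between days 3 and 1 of pilocarpine did not (0.0555). Numbers do not pair rats in the labels, and for 50 of 164 rats the closest rat had the same number (27.2 by chance). Signs turned 44 times, in 15 results that passed in neither fit. With the next brightest probe set, Cdkn1a was -0.1029, -0.009931, -0.04463, -0.0302 and -0.02605 at pilocarpine day 3, kainate days 3 and 10 and kindling stages 4 and 5, and 0.002758 at SSSE day 10. Cdkn1b was -0.3708, -0.3507, 0.03783 and -0.1952 at pilocarpine days 3 and 10 and SSSE days 1 and 10, and Mdm2 0.0553 at kindling stage 4. With quantile normalization, Ccng1 was -0.04101 at pilocarpine day 10 and -0.01907 at kindling stage 4, Cdkn1b 0.01546 at SSSE day 1 and Mdm2 0.0102 at kindling stage 4. With arrays centred on their median, Cdkn1b was 0.02853 and -0.002592 at SSSE days 1 and 10 and Mdm2 0.003488 at kindling stage 4. With array weights, Cdkn1a was -0.02492, 0.01333 and -0.01168 at kainate day 10, SSSE day 10 and kindling stage 5, Cdkn1b -0.00638 at SSSE day 10 and Mdm2 0.007081 at kindling stage 4. Cdkn1a at SSSE day 10 was 0.0002962 with 1 added, Gadd45a at kindling stage 2 0.007222 with 64 added, Ccng1 at pilocarpine day 10 -0.01413 with second arrays, and Cdkn1a at kainate day 10 -0.02407 without the rats unlike their group. With SSSE rats left out, Cdkn1b ran from -0.1267 to 0.07904 at day 1 and -0.06992 to 0.08889 at day 10, Gadd45g from -0.3476 (without day 1 rat 5) to 0.4608 at day 1 and Cdkn1a from -0.1048 to 0.07543 at day 10. The causes were not tested. Of 19 differences between times or models 16 kept their call. Of the pathway genes named, Cdkn1c, Btg3, Ppp1r13b, Crebbp and Ccne2 lost theirs under at least 1 setting. List counts, laboratory differences and likeness were not recomputed.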
